A study of Mus musculus with 8 samples.

Results

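The genes described here encode the machinery that copies chromosomal DNA. They were chosen by name: 49 genes for origin recognition, licensing, the replicative helicase, the polymerases, the clamp loader, strand maturation, chromatin assembly and the cyclin E and E2F switch that starts S phase. A gene was measured when at least 1 probe set of the array carried its symbol and no other, and 48 of the 49 were, out of 19958 genes measured in all. Pcna, the sliding clamp, had no such probe set and was not analysed here. The 48 genes rested on 727 probe sets, from 3 to 51 per gene, and 6 of them were found through an earlier symbol.

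RNA came from Lin-Sca1+cKit+ mouse cells sorted by flow cytometry, a population in which blood stem cells sit beside their early progenitors. There were 3 groups: fetal liver of E14.5 embryos that were Hmga2+/+ (wild-type fetal, n = 3), E14.5 fetal liver of Hmga2-/- embryos (n = 3), and adult bone marrow of Hmga2+/+ mice aged 8 to 12 weeks (adult, n = 2). The series title places Hmga2, a chromatin protein, downstream of Lin28b and the let-7 microRNAs in the self-renewal of fetal blood stem cells. No adult Hmga2-/- group was analysed here, tissue and age change together between fetal and adult samples, and the sources used here do not say how the Hmga2 allele was made or how many animals gave each sample.

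Before S phase, the origin recognition complex and Cdc6 load the MCM helicase onto origins together with Cdt1, which geminin holds back. Cdc7 kinase, Cdc45 and the GINS complex then switch the helicase on, primase and polymerase alpha start each strand, polymerases delta and epsilon extend it, and RPA coats the exposed single strands. Transcription of many of these genes is known to be driven by E2F factors late in G1, and in adult bone marrow the most primitive stem cells are known to be mostly quiescent while those of the fetal liver divide.

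The E2F motif was searched in the promoters of these genes because it is the known shared control element of replication genes. The words searched were TTTCCCGC, TTTCGCGC, TTTGCCGC and TTTGGCGC, each on both strands, in the 250 bases before the transcription start, from RefSeq on GRCm38.p6. Of the 48 measured genes, 39 had a promoter in the table, and 8 of the 39 (20.5%) held the motif. The share was 2.88% of 15427 measured genes with a promoter, and 2.16% of all 27025 genes with a promoter, measured or not. Stretches around the motif are shown for these 8, 5′ to 3′ on the strand of the gene and upstream of its start, with the motif in capitals. By the naming rule only Cdc6 would be shown; the other 7 were added after their motifs and values were seen.
Cdc6, chr11:98907977-98908056, plus strand: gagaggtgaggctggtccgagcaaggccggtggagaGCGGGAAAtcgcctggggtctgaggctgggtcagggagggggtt
Orc3, chr4:34614943-34615019, minus strand: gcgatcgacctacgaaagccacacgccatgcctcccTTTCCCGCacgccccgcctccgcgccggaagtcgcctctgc
Mcm5, chr8:75109320-75109403, plus strand: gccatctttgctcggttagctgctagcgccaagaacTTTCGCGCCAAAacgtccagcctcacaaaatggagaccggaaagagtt
Mcm6, chr1:128359709-128359851, minus strand: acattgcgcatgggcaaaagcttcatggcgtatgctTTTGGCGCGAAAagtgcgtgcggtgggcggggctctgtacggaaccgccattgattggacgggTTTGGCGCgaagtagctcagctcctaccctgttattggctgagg
Mcm7, chr5:138172005-138172084, minus strand: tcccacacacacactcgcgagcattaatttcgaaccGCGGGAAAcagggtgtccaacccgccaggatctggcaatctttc
Gins3, chr8:95633482-95633558, plus strand: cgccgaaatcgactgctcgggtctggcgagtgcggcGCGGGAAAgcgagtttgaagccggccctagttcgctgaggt
Pola1, chrX:93632250-93632329, minus strand: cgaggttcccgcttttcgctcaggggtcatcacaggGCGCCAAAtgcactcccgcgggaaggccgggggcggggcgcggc
Rfc3, chr5:151651209-151651254, minus strand: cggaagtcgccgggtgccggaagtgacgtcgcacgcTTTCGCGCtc
In Mcm5 and Mcm6 a pair of words on opposite strands overlapped, so that the long capital run there reads as a motif in both directions, and Mcm6 held a further copy nearer the start. The first bases of the motif lay 138 bases before the start in Cdc6, 41 in Orc3 and Gins3, and 10 in Rfc3. CCAAT, the word bound by NF-Y, read on either strand, was found in 23 of the 39 promoters (59.0%). The share was 38.8% of measured genes with a promoter and 37.5% of all genes with a promoter. A match is a description of these letters only.

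All values are log2 intensities unless a fold is named. Hmga2 itself read 9.24, 9.01 and 8.82 on the wild-type fetal arrays, 5.89, 5.88 and 6.08 on the Hmga2-/- fetal arrays and 6.61 and 7.19 on the adult arrays, so every array was on the side its label gives (Hmga2-/- minus wild type -3.08, SE 0.19, limma adjusted p = 0.000448). Both gate genes were lower on every fetal array than on either adult array. Kit read 9.64 to 10.07 on the fetal and 10.17 and 10.28 on the adult arrays (wild type -0.28, adjusted p = 0.411; Hmga2-/- -0.43, adjusted p = 0.127). Ly6a, which encodes Sca1, read 7.39, 6.64 and 6.65 on the wild-type fetal arrays, 5.59, 6.34 and 7.25 on the Hmga2-/- fetal arrays and 8.99 and 8.44 on the adult arrays (wild type -1.82, adjusted p = 0.0592; Hmga2-/- -2.32, adjusted p = 0.0179). Wild-type fetal array 3 stood apart: over all genes it correlated at 0.974 to 0.975 with the Hmga2-/- arrays and at 0.957 and 0.965 with the other wild-type fetal arrays, and 7 hepatocyte genes averaged 0.65 above their mean there against -0.22 to 0.00 on the other arrays. The summed linear intensity of those 7 genes ran from 327 to 630 in wild-type fetal, 309 to 373 in Hmga2-/- and 322 to 344 in adult cells, and the group means of Alb, Afp, Ttr, Ahsg and Fgb lay below background throughout. On wild-type fetal array 3 itself, Apoa2 (7.86), Alb (6.65) and Afp (6.499) lay above background, against 5.59, 5.03 and 5.18 on array 1 and 5.52, 5.60 and 5.03 on array 2, while Ttr, Ahsg and Fgb did not. The sum of 6 erythroid genes was 440 to 565 in wild-type fetal, 492 to 619 in Hmga2-/- and 329 to 412 in adult cells, and its higher fetal value came with the transferrin receptor gene Tfrc (1.05 in wild-type cells, adjusted p = 0.0784). The median over the 6 was -0.08, with 4 of 6 below 0, and the group means of Klf1, Slc4a1 and Rhag lay below background in every group. Background here is 5.83, the 95th percentile of 980 olfactory receptor genes, and the part of these markers in the results below was not tested.

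Most replication genes read higher in wild-type fetal cells than in adult cells. The median difference over the 48 genes was 0.84 on the log2 scale, against -0.06 over all 19958 genes, and 43 of the 48 lay above 0 (89.6%, against 43.3% of all genes). After Benjamini-Hochberg adjustment over all genes, 9 rose at an adjusted p under 0.05 (18.8%) and 0 fell, where 2.36% of all genes rose and 0.832% fell. At an unadjusted p under 0.05, 2 were lower, Rfc2 and Chaf1b (against 7.29% of all genes). Every wild-type fetal array lay above both adult arrays for 31 of the 48 (64.6%, against 15.7% of all genes), and below both for 1, Rfc2 (against 20.1%). Hmga2-/- fetal cells, set against the same adult arrays, gave a median of 0.95 (all genes -0.07), with 21 genes higher (43.8%, against 5.8% of all genes) and 0 lower (against 3.11%), and Rfc2 was the 1 gene lower at an unadjusted p under 0.05 (against 14.7%). There, every fetal array lay above both adult arrays for 37 genes (77.1%, against 20.6%) and below both for 1, again Rfc2 (against 29.6%). Both comparisons use the same adult arrays, so they are given side by side and are not independent.

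In RNA of a sorted pool, more cells that express a gene and more of its RNA per cell cannot be told apart. The count of 9 moved with single arrays: it was 4 without wild-type fetal array 3, 4 without adult array 1, of which only Prim1 was among the 9, and 17 without adult array 2. The count of 21 was 12, 12 and 10 without Hmga2-/- array 1, 2 or 3 and 13 without adult array 1. Single adult arrays also moved called differences by over 1.5 times in Hmga2-/- cells: without adult array 1 Pole2 went from 1.15 to 0.72, Rpa2 from 1.02 to 0.59 and Ccne2 from 1.81 to 1.09, and without adult array 2 Cdc45 went from 1.27 to 0.82, and none of the 4 then passed. The labels call the arrays of a group biological replicates, and with 3, 3 and 2 of them their number limits the precision.

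**Figure D1:**
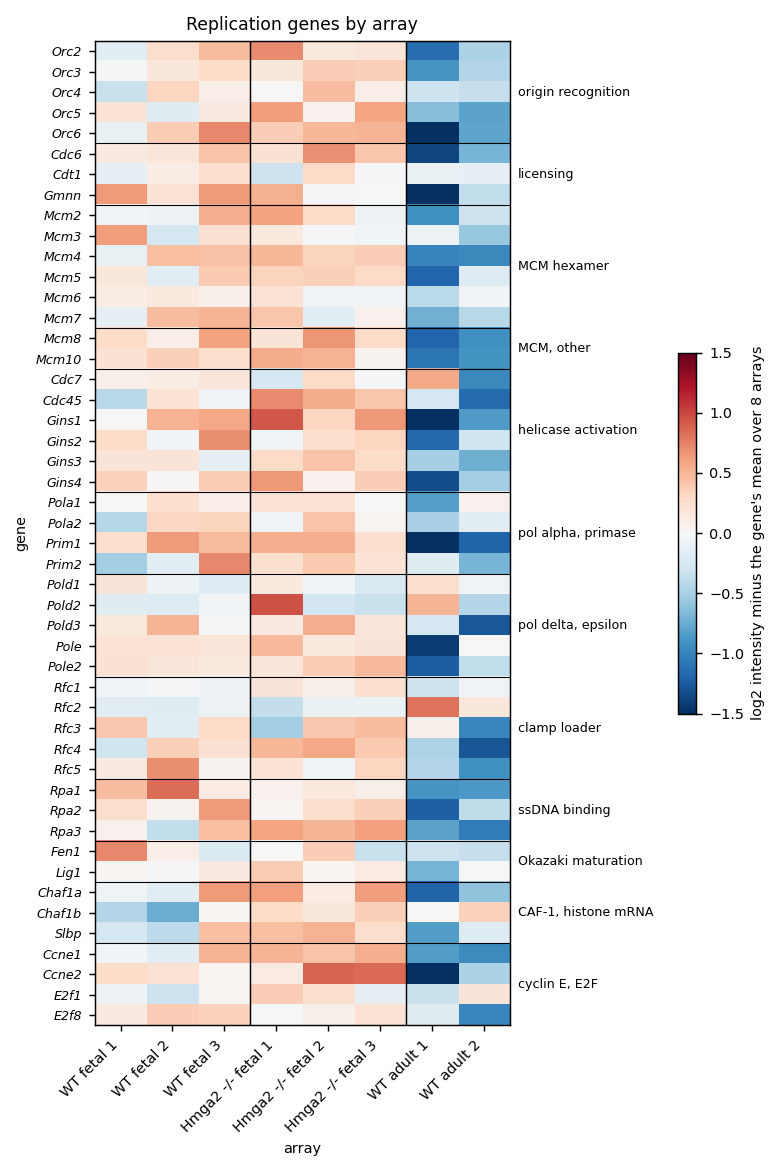
Log2 intensity of each of the 48 replication genes (rows, by role) on each of the 8 arrays (columns), minus the gene's mean over the 8 arrays. Red is higher and blue lower, with the colour scale ending at 1.5 either way; the adult columns are mostly blue, and Rfc2 is the row where both adult arrays lie above all fetal ones.

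Origin recognition genes read higher in wild-type fetal cells in all 5 measured subunits, with differences from 0.35 to 1.51, and 1 of them, Orc6, passed the test in wild-type cells. Orc6, the subunit least tightly held in the complex, read 8.19, 8.68 and 9.02 on the wild-type fetal arrays, 8.67, 8.80 and 8.81 on the Hmga2-/- fetal arrays and 6.73 and 7.51 on the adult arrays. All 6 fetal values lay above both adult ones, and wild-type fetal cells exceeded adult cells by 1.51 (SE 0.28, 2.85-fold, adjusted p = 0.0271). All 8 Orc6 probe sets were higher in wild-type fetal cells. Orc4, an ATPase subunit and the one nearest to 0, read 7.54, 8.20 and 7.98 on the wild-type fetal arrays, 7.87, 8.34 and 7.98 on the Hmga2-/- fetal arrays and 7.57 and 7.54 on the adult arrays, and its lowest wild-type fetal array overlapped the adult ones (0.35, SE 0.23, adjusted p = 0.442). In Hmga2-/- cells Orc2 (1.16), Orc3 (0.96) and Orc5 (1.15, at least 1.67-fold because the adult level lay below background) passed as well as Orc6 (1.64). Of 11 other settings, the calls of Orc2, Orc3, Orc5 and Orc6 in Hmga2-/- cells were kept in 6, 9, 10 and 10. The Orc6 call in wild-type cells was kept in 6 of the 11. Orc5 was lost when the median over its probe sets was taken (limma adjusted p = 0.318).

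Among the licensing factors, the loader Cdc6 rose and its partner Cdt1 stayed near background. Cdc6 read 7.92, 7.95 and 8.20 on the wild-type fetal arrays, 8.00, 8.46 and 8.19 on the Hmga2-/- fetal arrays and 6.40 and 7.08 on the adult arrays, with no overlap between fetal and adult arrays. It was 2.43-fold higher in wild-type fetal cells (1.28, SE 0.23, adjusted p = 0.0246), and 8 of its 9 probe sets were higher. That call was kept in 7 of 11 other settings and was lost when any of the wild-type fetal arrays was left out. Cdt1 read 5.79, 6.03 and 6.17 on the wild-type fetal arrays, 5.61, 6.22 and 5.90 on the Hmga2-/- fetal arrays and 5.81 and 5.80 on the adult arrays, all within a narrow range around the background level of 5.83 (0.20, SE 0.21, adjusted p = 0.649). Gmnn, which encodes geminin, the inhibitor of Cdt1, read 7.79, 7.37 and 7.79 on the wild-type fetal arrays, 7.69, 7.13 and 7.14 on the Hmga2-/- fetal arrays and 5.51 and 6.78 on the adult arrays. The fetal arrays were all above the adult ones, but adult array 1 lay 1.27 below adult array 2, and the wild-type difference of 1.51 (SE 0.35) did not pass (adjusted p = 0.0527).

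The 6 subunits of the MCM helicase, Mcm2 to Mcm7, act as 1 ring, yet their differences ran from 0.33 to 1.24, all above 0. Mcm4 was the 1 that rose, in both fetal genotypes. It read 8.70, 9.27 and 9.25 on the wild-type fetal arrays, 9.31, 9.15 and 9.19 on the Hmga2-/- fetal arrays and 7.81 and 7.85 on the adult arrays. The adult arrays were close to each other and below all fetal ones, and the difference in wild-type cells was 1.24 (SE 0.20, 2.37-fold, adjusted p = 0.0154), with all 16 probe sets higher. Mcm6, nearest to 0, read 10.16, 10.18 and 10.12 on the wild-type fetal arrays, 10.26, 9.99 and 10.00 on the Hmga2-/- fetal arrays and 9.64 and 10.00 on the adult arrays. It was bright in every group and all wild-type fetal arrays were just above both adult ones, at 0.33 (SE 0.17, adjusted p = 0.341). Mcm7 read 8.47, 9.07 and 9.12 on the wild-type fetal arrays, 9.03, 8.45 and 8.67 on the Hmga2-/- fetal arrays and 7.88 and 8.19 on the adult arrays, with the adult arrays lowest (0.85, SE 0.25, adjusted p = 0.108). Mcm2 (0.76), Mcm3 (0.52) and Mcm5 (0.83) did not pass either, and in Mcm5 the adult arrays read 6.79 and 7.79, a gap wider than the group difference.

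Both MCM genes outside the ring that are among the 48 rose in fetal cells. Mcm9, counted with the other replication genes, overlapped the adult arrays. It passed neither in wild-type (0.15, limma adjusted p = 0.836) nor in Hmga2-/- cells (0.43, adjusted p = 0.394). Mcm10, which joins the helicase at the firing origin, read 7.54, 7.67 and 7.58 on the wild-type fetal arrays, 7.87, 7.83 and 7.37 on the Hmga2-/- fetal arrays and 6.21 and 6.41 on the adult arrays, a separation of fetal from adult arrays with no overlap. The wild-type difference was 1.28 (SE 0.19, 2.43-fold, adjusted p = 0.0132), with 20 of 21 probe sets higher. Mcm8, which works with Mcm9 in recombination repair, read 6.95, 6.78 and 7.29 on the wild-type fetal arrays, 6.87, 7.34 and 6.97 on the Hmga2-/- fetal arrays and 5.49 and 5.76 on the adult arrays. Its adult mean lay below background, so that it was at least 2.26-fold higher in wild-type fetal cells (measured difference 1.38, SE 0.21, adjusted p = 0.014).

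Of the factors that switch the helicase on, Gins1 rose in both fetal genotypes. Gins1, a subunit of the GINS complex, read 7.90, 8.44 and 8.49 on the wild-type fetal arrays, 8.85, 8.24 and 8.56 on the Hmga2-/- fetal arrays and 5.75 and 7.06 on the adult arrays. All fetal arrays were higher, and the adult arrays differed from each other by 1.31 (1.87, SE 0.36, 3.66-fold, adjusted p = 0.031). Without adult array 1, the lower one, the wild-type difference was 1.22 and did not pass (adjusted p = 0.0985), and the Hmga2-/- difference, 2.15 with both arrays, was 1.49. All 8 probe sets of Gins1 were higher in wild-type fetal cells. The other GINS subunits were higher by 1.05 (Gins2), 0.70 (Gins3) and 1.17 (Gins4) and did not pass in wild-type cells. In Hmga2-/- cells Gins3 (at least 1.62-fold) and Gins4 (1.28) passed. Of 11 other settings, each of these 2 calls was kept in 8, and Gins3 reached a limma adjusted p of 0.839. Cdc7, the kinase that fires origins, read 6.82, 6.85 and 6.92 on the wild-type fetal arrays, 6.49, 7.04 and 6.72 on the Hmga2-/- fetal arrays and 7.31 and 5.77 on the adult arrays. The adult arrays lay on both sides of all fetal ones, 1.54 apart (0.32, SE 0.37, adjusted p = 0.678). Cdc45, the third helicase component beside MCM and GINS, is described with the comparison of genotypes.

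**Figure D2:**
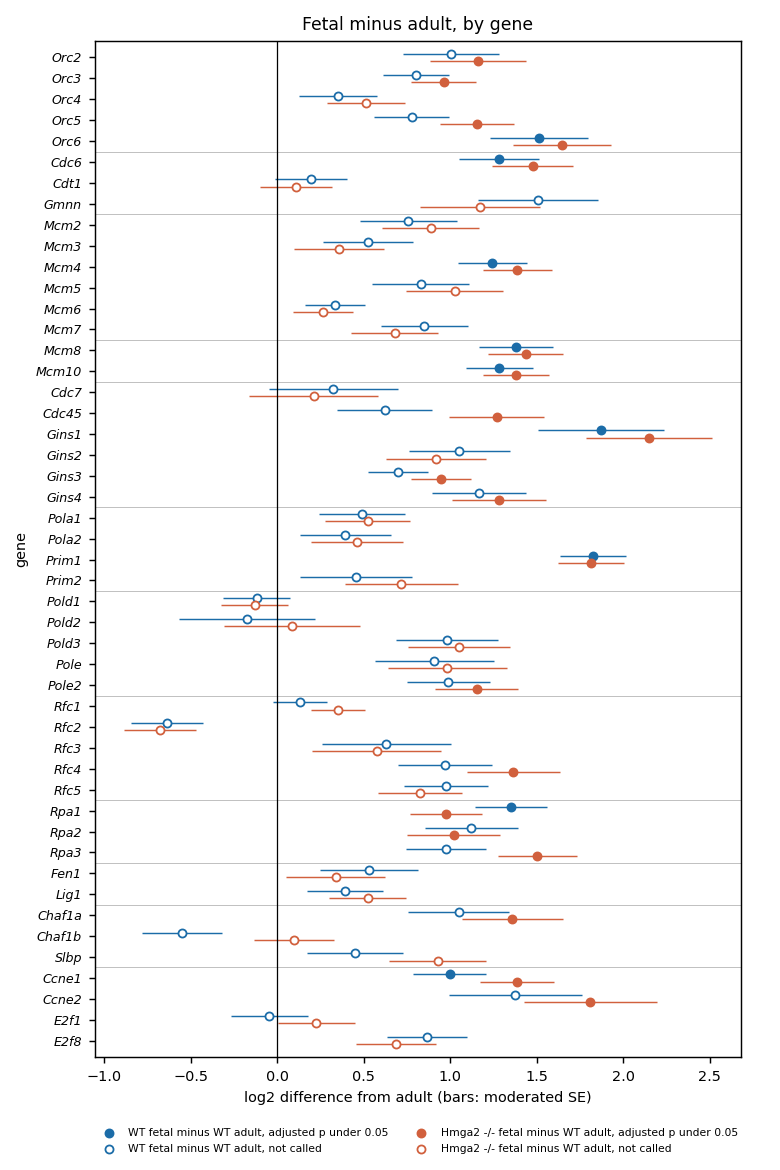
Log2 difference from adult cells for each of the 48 genes (rows), for wild-type fetal (blue) and Hmga2-/- fetal (orange) cells, with the moderated standard error as a bar; filled points passed at an adjusted p under 0.05. All filled points lie to the right of 0, 9 in blue and 21 in orange, and both genotypes share the same adult arrays.

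Prim1 had the smallest p of the 48 genes in both comparisons with adult cells. It encodes the catalytic subunit that lays down the RNA primer, and it read 9.39, 9.78 and 9.61 on the wild-type fetal arrays, 9.68, 9.68 and 9.39 on the Hmga2-/- fetal arrays and 7.61 and 7.93 on the adult arrays. The lowest fetal array, at 9.39, lay far above the highest adult array, at 7.93. Wild-type fetal cells exceeded adult cells 3.54-fold (1.82, SE 0.19, adjusted p = 0.00293) and Hmga2-/- cells 3.51-fold (1.81, adjusted p = 0.00282), and all 14 probe sets were higher in wild-type fetal cells, by 0.52 to 4.32. Prim1 was the 1 gene of the 9 that passed under each array left out in turn and each of 11 other settings. Its partners in the complex differed less and did not pass: Prim2 by 0.45 and Pola1, the catalytic subunit of polymerase alpha, by 0.49. Pola2, the accessory subunit and the one nearest to 0, read 6.94, 7.68 and 7.71 on the wild-type fetal arrays, 7.33, 7.80 and 7.41 on the Hmga2-/- fetal arrays and 6.89 and 7.21 on the adult arrays, and wild-type fetal array 1 lay among the adult values (0.39, SE 0.26, adjusted p = 0.464).

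The genes of the polymerases that extend the strands did not pass in wild-type cells. Pold3 (0.98), Pole (0.91) and Pole2 (0.99) had every wild-type fetal array above both adult ones, and Pole2 passed in Hmga2-/- cells (1.15, adjusted p = 0.025). Pold1, the catalytic subunit of polymerase delta, read 7.36, 7.08 and 6.97 on the wild-type fetal arrays, 7.32, 7.13 and 6.94 on the Hmga2-/- fetal arrays and 7.40 and 7.12 on the adult arrays, and the groups overlapped (-0.12, SE 0.19, adjusted p = 0.778). Pold2, its accessory subunit, differed by -0.18 (SE 0.39) and had 1 Hmga2-/- array at 8.48 against 7.26 and 7.20 for the others.

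The genes of the clamp loader lay on both sides of 0. Its large subunit gene Rfc1 read 8.55, 8.57 and 8.52 on the wild-type fetal arrays, 8.79, 8.67 and 8.84 on the Hmga2-/- fetal arrays and 8.29 and 8.55 on the adult arrays, a difference of 0.13 (SE 0.16, adjusted p = 0.687) with overlap between the groups. Rfc4 (0.97) and Rfc5 (0.97) had all wild-type fetal arrays above the adult ones without passing, and Rfc4 passed in Hmga2-/- cells (1.36, adjusted p = 0.021). Rfc2, named here after its values were seen, went the other way. It read 7.45, 7.41 and 7.51 on the wild-type fetal arrays, 7.24, 7.50 and 7.50 on the Hmga2-/- fetal arrays and 8.41 and 7.77 on the adult arrays, so both adult arrays were above all 6 fetal ones. All 11 Rfc2 probe sets were lower in wild-type fetal cells, by 0.09 to 1.05, but the difference of -0.64 (SE 0.21) did not pass (adjusted p = 0.141). Rfc3 had adult arrays at 9.02 and 7.97, which overlapped the fetal ones.

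All 3 genes of RPA, the single-strand binding complex, were higher on every fetal array than on either adult array. Rpa1, which encodes the large DNA-binding subunit, read 8.21, 8.60 and 7.88 on the wild-type fetal arrays, 7.82, 7.91 and 7.85 on the Hmga2-/- fetal arrays and 6.88 and 6.89 on the adult arrays. The adult arrays nearly coincided, and wild-type fetal cells were 2.55-fold higher (1.35, SE 0.21, adjusted p = 0.0135), with 17 of 18 probe sets higher. Rpa2 (1.12) and Rpa3 (0.97) did not pass in wild-type cells and did in Hmga2-/- cells (1.02 and 1.503). There the Rpa2 call (adjusted p = 0.0477) was kept in 4 of 11 other settings. The 3 Rpa3 probe sets differed by 0.67, 0.89 and 2.95 in Hmga2-/- cells. Its call was lost when their median was taken (limma adjusted p = 0.112). The genes among the 48 that finish Okazaki fragments differed less. Lig1, the ligase that seals them, read 8.77, 8.71 and 8.87 on the wild-type fetal arrays, 9.12, 8.77 and 8.86 on the Hmga2-/- fetal arrays and 8.04 and 8.75 on the adult arrays, where adult array 2 lay among the fetal values (0.39, SE 0.22, adjusted p = 0.384). Fen1, the flap nuclease, differed by 0.53 (SE 0.28) and did not pass. Further genes of this step are counted with the other replication genes. Of these, Dna2 passed in wild-type (1.08, limma adjusted p = 0.029) and Hmga2-/- cells (1.37, adjusted p = 0.00837). Rnaseh2a (0.66 in wild-type cells), Rnaseh2b (0.645) and Rnaseh2c (0.23) passed in neither.

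Chromatin assembly genes split by subunit. Chaf1a, the large subunit of the histone chaperone CAF-1, was higher in fetal cells by 1.05 in wild-type (adjusted p = 0.0922) and by 1.36 in Hmga2-/- cells, where it passed (adjusted p = 0.0265). Chaf1b, the middle subunit, differed from adult cells by -0.55 in wild-type and 0.10 in Hmga2-/- cells, and neither passed. Slbp, which binds the stem-loop of histone mRNA, read 8.26, 8.14 and 8.97 on the wild-type fetal arrays, 8.97, 9.05 and 8.79 on the Hmga2-/- fetal arrays and 7.69 and 8.33 on the adult arrays. Wild-type fetal arrays 1 and 2 lay below adult array 2 (0.45, SE 0.28, adjusted p = 0.427).

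Of the cyclin E and E2F genes that open S phase, Ccne1 rose. Ccne1, which encodes the cyclin E1 that activates Cdk2, read 7.13, 6.995 and 7.69 on the wild-type fetal arrays, 7.68, 7.60 and 7.71 on the Hmga2-/- fetal arrays and 6.34 and 6.22 on the adult arrays. The adult arrays were lowest and the difference was 1.99-fold (1.00, SE 0.21, adjusted p = 0.041), a call that was lost whichever array was left out. Ccne2 differed by 1.38 (SE 0.38) without passing, and passed in Hmga2-/- cells (1.81, adjusted p = 0.0256). E2f8, a repressor of the family, read 8.36, 8.59 and 8.57 on the wild-type fetal arrays, 8.23, 8.32 and 8.44 on the Hmga2-/- fetal arrays and 8.04 and 7.25 on the adult arrays (0.86, SE 0.23, adjusted p = 0.0821). E2f1, an activator, read 6.45, 6.22 and 6.57 on the wild-type fetal arrays, 6.90, 6.77 and 6.40 on the Hmga2-/- fetal arrays and 6.20 and 6.72 on the adult arrays, with the groups overlapping (-0.05, SE 0.22, adjusted p = 0.93).

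**Figure D3:**
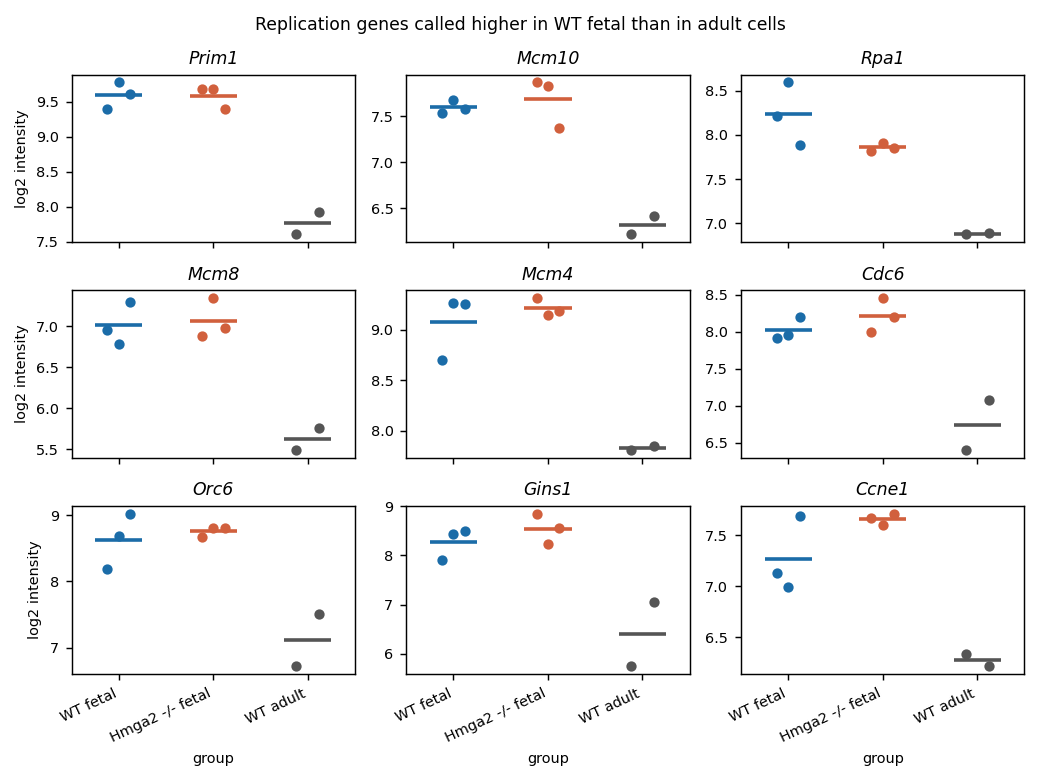
Log2 intensity of the 9 genes that rose in wild-type fetal against adult cells, 1 panel per gene, ordered by p. Points are arrays and lines are group means; in each panel both adult arrays lie below all 6 fetal arrays, and the vertical axes differ between panels and do not start at 0.

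Between Hmga2-/- and wild-type fetal cells, 0 of the 48 genes passed at an adjusted p under 0.05 with limma (lowest adjusted p = 0.631). Among all 19958 genes 0% rose and 0.01% fell, so the count of 0 does not set these genes apart. The median difference, Hmga2-/- minus wild type, was 0.13, against -0.02 over all genes. Of the 48, 32 lay above 0 (66.7%, against 46.8% of all genes). Other lists leaned the same way: 75.7% of 37 further replication genes (median 0.19) and 73.3% of 30 G2 and M phase genes (median 0.20) lay above 0. The shares were 60.0% of 20 nucleotide supply genes (median 0.01) and 66.7% of 9 checkpoint genes (median 0.06). After quantile normalization the median over the 48 genes was 0.06. At an unadjusted p under 0.05, 3 genes were higher (6.25%, against 3.55% of all genes) and 0 lower (against 4.08%). Every Hmga2-/- array lay above every wild-type fetal array for 6 genes (12.5%, against 5.94% of all genes), Cdc45, Gins3, Rfc1, Rfc4, Rpa3 and Chaf1b, and below for 0 (against 7.86%). The differences of single genes ran from -0.37 to 0.65.

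The 4 smallest p among higher genes belonged to Chaf1b, Cdc45, Rpa3 and Ccne1. Chaf1b read 6.45, 6.14 and 6.92 on the wild-type fetal arrays, 7.16, 7.06 and 7.24 on the Hmga2-/- fetal arrays and 6.88 and 7.23 on the adult arrays. Here wild-type fetal arrays 1 and 2 were lowest, and the Hmga2-/- arrays overlapped the adult ones (0.65, SE 0.21, adjusted p = 0.631), with 9 of 14 probe sets higher in Hmga2-/- cells. Cdc45 read 7.34, 7.96 and 7.70 on the wild-type fetal arrays, 8.46, 8.31 and 8.17 on the Hmga2-/- fetal arrays and 7.49 and 6.60 on the adult arrays. The Hmga2-/- arrays were highest, the other groups overlapped (0.65, SE 0.25, adjusted p = 0.632), and 19 of 21 probe sets were higher in Hmga2-/- cells. Rpa3, the small RPA subunit, read 8.77, 8.34 and 9.15 on the wild-type fetal arrays, 9.30, 9.22 and 9.32 on the Hmga2-/- fetal arrays and 7.90 and 7.66 on the adult arrays (0.53, SE 0.21, adjusted p = 0.632). It had 3 probe sets, which differed by 0.10, 0.11 and 1.38, so the gene's difference came mostly from 1 of them. Ccne1 differed by 0.39 (SE 0.19, adjusted p = 0.659), and its wild-type fetal array 3 lay within the Hmga2-/- range.

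The 4 smallest p among lower genes belonged to Rpa1 (-0.37, SE 0.19), Gmnn (-0.34, SE 0.31), E2f8 (-0.18, SE 0.21) and Mcm7 (-0.17, SE 0.22), with adjusted p of 0.664, 0.79, 0.834 and 0.85. In each of the 4 the arrays of the genotypes overlapped. Prim1, which separated fetal from adult cells most clearly, differed by -0.01 (SE 0.17) between the genotypes. The means of the MCM ring genes were near each other in both genotypes, with differences from -0.17 to 0.19.

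**Figure D4:**
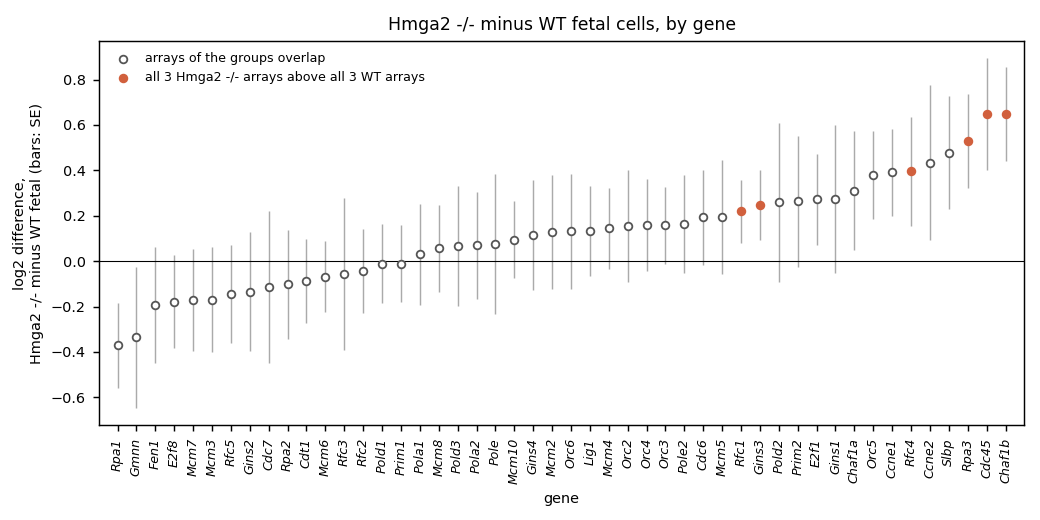
Log2 difference, Hmga2-/- minus wild-type fetal cells, for each of the 48 genes in order of size, with the moderated standard error as a bar. Filled points are the 6 genes whose 3 Hmga2-/- arrays all lie above the 3 wild-type arrays. Of the 48 points, 32 lie above 0 (66.7%, against 46.8% of all genes), and none passed at an adjusted p under 0.05.

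Wild-type fetal array 3 read like the Hmga2-/- arrays in these genes. Averaged over the 48 genes, each set against its mean over the 8 arrays, the wild-type fetal arrays stood at 0.06, 0.11 and 0.27, the Hmga2-/- arrays at 0.29, 0.28 and 0.22, and the adult arrays at -0.71 and -0.53. It thus lay inside the Hmga2-/- range, with arrays 1 and 2 below it. Without that array the median genotype difference was 0.19, and without array 1 it was 0.06. This is the array whose hepatocyte genes were high and which correlated best with the Hmga2-/- arrays, and its Hmga2 level, 8.82, was that of its label.

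The adult arrays differed from each other in these genes, as they did in genes of G2 and M phase. The median SD of the 48 genes was 0.43 in adult cells, against 0.17 over all genes, and 0.27 and 0.19 in wild-type and Hmga2-/- fetal cells, against 0.22 and 0.18. Adult array 2 was higher than array 1 for 29 of the 48, by a median of 0.29. Over all genes it was higher for 9492 of 19958, with a median difference of -0.02. The adult arrays were over 1 apart in 7 of the 48 genes (14.6%), against 5.32% of all genes. Of 30 genes of G2 and M phase, 24 were higher on array 2, by a median of 0.53, and 4 were over 1 apart (13.3%). Of the 7 replication genes, Ccne2 (1.44), Pole (1.43), Gins1 (1.31) and Gmnn (1.27) were higher on array 2, and Cdc7 (-1.54), Rfc3 (-1.06) and Pold3 (-1.01) were lower. The 9 called genes included both kinds of adult pair: Rpa1 and Mcm4 had adult arrays 0.02 and 0.04 apart, and Gins1 and Orc6 had them 1.31 and 0.78 apart.

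Other genes of DNA replication and of the cell cycle, from lists chosen with earlier results of these data known, ran the same way. Of 37 further replication genes, 6 rose in wild-type fetal against adult cells (16.2%, against 2.36% of all genes) and 0 fell, with a median of 0.65, and 14 rose in Hmga2-/- cells (37.8%, against 5.8%). Ccna2, the S phase cyclin A2, rose by 1.72 (SE 0.20, adjusted p = 0.00497), Dbf4, the activating subunit of Cdc7 kinase, by 1.37 (adjusted p = 0.0124) and Ticrr, which helps load Cdc45, by 1.81 (adjusted p = 0.0128). Thus Dbf4 passed where its kinase partner Cdc7 did not. Of 20 nucleotide supply genes, 7 rose in wild-type cells (35%), with a median of 0.82, and 10 in Hmga2-/- cells (50.0%), among them in both Rrm1 (1.21) and Rrm2 (1.01), the subunits of ribonucleotide reductase, and Nme1 (1.32), a nucleoside diphosphate kinase. Of 30 genes of G2 and M phase, 14 rose in wild-type cells (46.7%), with a median of 1.03 beside the 0.84 of the replication genes, and 20 in Hmga2-/- cells (66.7%); Ube2c, Hmmr and Bub1 had the smallest p in wild-type cells. Of 9 replication checkpoint genes 2 rose in Hmga2-/- cells (22.2%) and 1 in wild-type cells (11.1%), the kinase gene Chek1 (1.68, SE 0.22, adjusted p = 0.00803). By array, the G2 and M phase genes had the same order as the replication genes on wild-type fetal arrays 1 to 3, at -0.02, 0.12 and 0.46, and on adult arrays 1 and 2, at -1.08 and -0.61.

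**Figure D5:**
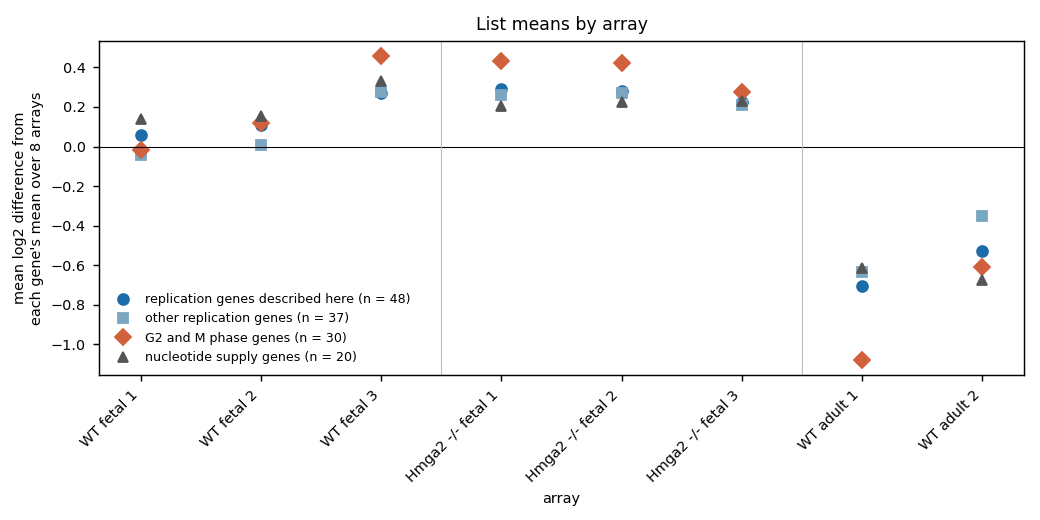
Mean log2 difference from each gene's mean over the 8 arrays, for the 48 replication genes, 37 other replication genes, 30 genes of G2 and M phase and 20 nucleotide supply genes, on each array. The adult arrays lie between -1.08 and -0.35 for the 4 lists, and wild-type fetal array 3 lies above the other wild-type fetal arrays in each.

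The promoter motifs were also counted by call. Among the 7 called genes with a promoter in the table, 1 (Cdc6) held the E2F motif, and among the 32 not called 7 did (14.3% and 21.9%). Wild-type fetal minus adult differences of the 8 genes with the motif ran from 0.33 in Mcm6, with 3 copies, to 1.28 in Cdc6, with 1. Mcm5, with 2 copies, was at 0.83. The others, with 1 copy each, were Mcm7 (0.85), Orc3 (0.80), Gins3 (0.70), Rfc3 (0.63) and Pola1 (0.49). CCAAT was found in 5 of the 7 called genes and 18 of the 32 others. These are counts over few promoters, given with no test.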

How the data were processed

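RNA of sorted cells was amplified with the Ovation Pico WTA system from an average of 50 ng and biotin-labelled, per the labels' protocols, and hybridised to Affymetrix Mouse Gene 1.0 ST arrays. The authors deposited linear intensity values of 225993 probe sets; RMA, with no version given in the sources used here, is named in the submitters' processing notes. The deposited intensity values of a second table of 199508 exon rows served as an alternative. Values were log2 transformed with no further normalization (array medians 6.20 to 6.27). Platform annotation gave 208881 probe sets 1 gene symbol, 1668 several and 15444 none; only the first kind was used, updated through RefSeq of GRCm38.p6, and averaged per gene. This left out 5 probe sets shared by Ccne2 and Ints8 and 1 shared by Rfc4 and Eif4a2.

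The groups were compared with limma 3.58.1 (R 4.3.3; lmFit, eBayes, 1 fit of 8 arrays, two-sided, Benjamini-Hochberg over 19958 genes, called at an adjusted p under 0.05). SE is the moderated standard error. Where the dimmer group's mean lay below 5.83 a fold is a lower bound. On simulated arrays of 19958 genes, for wild-type fetal against adult cells, 4% of genes changed 1.5-fold were recovered, 36% of 2-fold and 96% of 3-fold, with 3 false calls; for Hmga2-/- against wild type 4%, 56% and 100%, with 4. Tables and figures were made with Python 3.11.15.

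The members and lists were chosen with earlier results of these data known. Any member could be named; values on every array are given for members called in wild-type fetal against adult cells, the 4 smallest p in each direction between genotypes and, per role, the member nearest 0. From other lists, up to 3 called genes with the smallest p are named. Orc1, Mcm9, Dna2 and the Rnaseh2 genes are named in addition, after their values were seen. Alternatives were the 2 groups alone, a replicate block, trended or robust variance, array weights, probe set medians, filters on dim probe sets or genes, quantile normalization, median centring, the exon table, other thresholds, a 100-base promoter window and each array left out.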

Additional observations from a re-analysis of the deposited data

How the results depend on the processing

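Between genotypes, 0 of the 48 genes were called under every alternative run. For wild-type fetal against adult cells (9 called), the count was 2 with the 2 groups alone, 5 with probe set medians, 14 after dim genes were left out and 16 after median centring; it was 1 at an adjusted p under 0.01 and 24 under 0.1, and ran from 4 to 17 with each array left out. For Hmga2-/- fetal against adult cells (21 called), it was 9 with probe set medians, 13 with quantile normalization (12 higher and Rfc2 lower) and 6 at an adjusted p under 0.01, and ran from 10 to 22 with each array left out. The other alternatives kept these counts within 1.5 times, except the replicate block, and no called difference changed sign. Quantile normalization lowered the median over the 48 genes to 0.62 and 0.65 in the 2 comparisons with adult cells and from 0.13 to 0.06 between genotypes. Leaving out dim genes kept 10435 genes and left the medians of the 48 unchanged. It raised the median of all genes from -0.06 to 0.12 in wild-type and from -0.07 to 0.17 in Hmga2-/- cells against adult cells. Between genotypes it went from -0.02 to 0.03. The cause of these shifts was not tested.

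With the replicate number as a block, 4 genes were called in wild-type fetal against adult cells, 14 in Hmga2-/- fetal against adult cells and 0 between genotypes. Same-numbered fetal samples did not deviate together (correlations of -0.02, 0.01 and -0.04 over 10435 genes). With so few samples and no adult ones in it, this check cannot decide whether the numbers pair the samples. In the 100-base window 10.3% of the 39 member promoters held the E2F motif, against 1.27% of measured genes and 0.981% of all genes with a promoter. With 2 adult arrays, a difference of 2-fold was often missed on the simulated arrays and may be missed here. The simulated arrays gave each gene the same spread in every group. The median SD of the 48 genes was 0.43 in adult cells, against 0.27 and 0.19 in wild-type and Hmga2-/- fetal cells. The simulated recovery rates may therefore not hold for these genes. Genes with adult means below 5.83 (Orc5, Mcm8, Gins3 and Cdt1 of the 48, and Orc1) have only a bound.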
